A study of Mus musculus with 6 samples.

Results

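The optic nerve is wrapped by meninges, and the genes described here are 10 transcripts known from the fibroblasts of that sheath: Mgp, Igfbp2, Foxc1, Dcn, Lum, Ogn, Fmod, Ptgds, Slc6a13 and Aldh1a2. They were chosen by name, with collagens left out and with earlier results of these data known. All 10 were found by symbol among the 52636 genes of the deposited table, and all 10 were among the 16157 genes tested. Mouse optic nerve RNA was sequenced after removal of ribosomal RNA in 3 libraries labelled hND6 and 3 labelled mCherry. The hND6 libraries carry the treatment label "Mutant human ND6T14484C", which names a mutant human ND6, a subunit gene of respiratory complex I that is normally on mitochondrial DNA. The mCherry libraries carry the treatment label of a red fluorescent protein. A single treatment text stands beside both groups and says that a lentivirus carrying the mutant gene was injected into the eye, so what the mCherry animals received is known only from their label. Strain, age, sex, time after injection and the number of animals are not stated, and p-values therefore measure the spread between libraries, which may in part be technical.

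The sheath is layered: a tough outer dura, an arachnoid whose cells are sealed to each other, and a thin pia that follows the nerve and its vessels. Their fibroblasts lay down collagen fibres, and small leucine-rich proteoglycans bind those fibres and set their width and spacing. Meningeal cells are also a source of retinoic acid, of prostaglandin D and of proteins that bind growth factors, and they carry transporters that move solutes between the fluid around the nerve and the blood. The transcription factor Foxc1 is needed for the meninges to form in the mouse embryo.

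Reads recovered from the values numbered 20253600 to 34057700 per hND6 library and 25718400 to 34758900 per mCherry library, and the 10 genes had between 215 reads (Lum in mCherry 1) and 139214 reads (Ptgds in hND6 1). Levels are given as FPKM, read numbers corrected for the exon length of the gene and for sequencing depth, so they can be compared between genes. Libraries differed in traces of other tissue. The summed level of 6 photoreceptor genes was 4.41, 189 and 0.642 FPKM in hND6 1 to 3, against 0.697 to 5.31 FPKM in mCherry. That of 6 forebrain neuron genes was 8.28 to 33.9 FPKM in hND6 and 4.24, 2.60 and 133 FPKM in mCherry 1 to 3. Both sexes occurred in each group: hND6 3, mCherry 1 and mCherry 3 held Xist RNA and no more than 0.0812 FPKM of 4 Y-linked genes.

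Markers of meningeal cells were present. Of 11 such markers 10 were tested, and the other, the transcription factor gene Foxc2, was listed at 0 in all 6 libraries. Pdgfra, a PDGF receptor gene of fibroblasts and of oligodendrocyte precursors, stood at 17.1, 18.4 and 14.2 FPKM in hND6 and 15.0, 17.1 and 12.1 FPKM in mCherry. The organic anion transporter gene Slc22a8 stood at 40.2, 41.8 and 25.1 FPKM in hND6 and 29.3, 33.9 and 36.2 FPKM in mCherry, and Slc47a1, an efflux transporter gene of arachnoid cells, at 45.0, 25.1 and 36.8 FPKM in hND6 and 37.3, 21.6 and 15.8 FPKM in mCherry. RNA of Mbp, a major myelin gene, was abundant, at 1818 FPKM (in mCherry 3) or more in every library. The cell make-up of the tissue was not estimated.

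**Figure D1:**
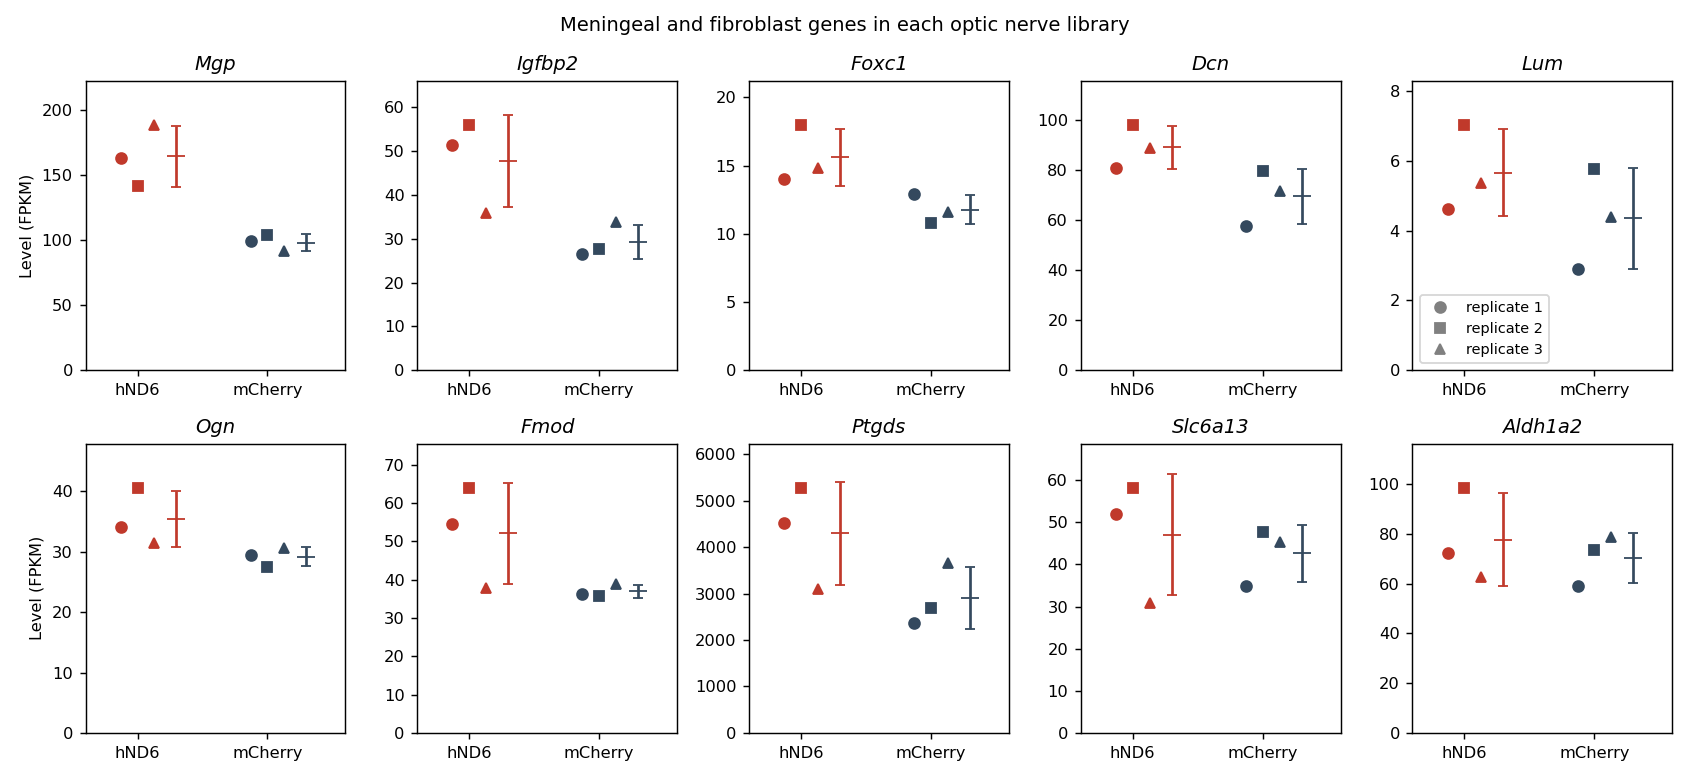
Level of each of the 10 genes in FPKM in the 3 hND6 libraries (left, red) and the 3 mCherry libraries (right, dark), with marker shapes for replicates 1 to 3 and bars for the mean ± SD. The groups are separate for Mgp, Igfbp2, Foxc1, Dcn and Ogn and overlap for the other 5 genes.

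All 10 genes had a higher mean in hND6 than in mCherry, by a median log2 fold change of 0.38, while the median over all tested genes was -0.01. Mgp and Igfbp2 stood 1.68-fold and 1.63-fold higher, and Ptgds 1.48-fold. Slc6a13 and Aldh1a2 stood about level, at 1.10-fold each. No gene of the 10 passed the adjusted threshold of 0.05 in limma, a moderated test fitted across all genes, where 7 of 16157 genes (0.0433%) passed in all. That count of 7 was 131 without mCherry 3, 0 without mCherry 2, 1 without mCherry 1 or without hND6 1, and 2 without hND6 2, with none of the 10 among them. At an unadjusted p under 0.05, 6 of the 10 were higher and 0 lower, beside 9.11% and 6.05% of all tested genes. At the adjusted threshold, voom on the recovered reads called 0 of the 10 and 0 of all 16157 tested genes. The 3 hND6 values all lay above the 3 mCherry values for 5 of the 10 genes, Mgp, Igfbp2, Foxc1, Dcn and Ogn, and the groups overlapped for the other 5. Of all tested genes 12.6% were separated in this direction and 10.2% in the other.

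How many genes were separated depended on the scale and on single libraries. With every library brought to the same summed FPKM (the TPM scale), the median over all tested genes became -0.14, the median of the 10 was 0.24, and 1 gene, Mgp, kept separate groups, beside 5.37% of all tested genes, while 18.9% were separated in the other direction. On that scale 8 of the 10 lay above 0 and all 10 lay above the median of all genes. The count of 6 genes at an unadjusted p under 0.05 was 2 there, where 544 of all tested genes were higher and 2185 lower at that p. It was also 2 without hND6 2, where 879 of all tested genes were higher at that p, against 1472 with the values as deposited. The count was 3 without mCherry 1 (1418 of all tested genes higher), without mCherry 2 (1283) and after quantile normalisation (1329). It was also 3 with the gene span trend removed (899), with sex as a covariate (1356), with the replicate block (1188) and without the intensity trend (1385). The predicted gene Gm23935 made up 22.3% to 24.0% of summed FPKM in hND6 and 17.0% to 24.2% in mCherry. With it left out of the sum, chosen after the data were seen, the groups of 2 genes, Mgp and Foxc1, were separate, beside 6.69% of all tested genes. With the trend with gene span removed from each library, 3 genes were separate, Mgp, Igfbp2 and Dcn, beside 8.84% of all tested genes, and Ogn also overlapped after quantile normalisation and on the voom scale. Without hND6 3 the count was 8, beside 15.5% of all genes. Without hND6 2, the library with photoreceptor transcripts, the same 5 genes were separate, beside 15.1% of all genes, and the median of the 10 was 0.29. In bulk RNA, a difference in the number of sheath cells taken with the nerve cannot be told apart from a difference in RNA per cell.

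**Figure D2:**
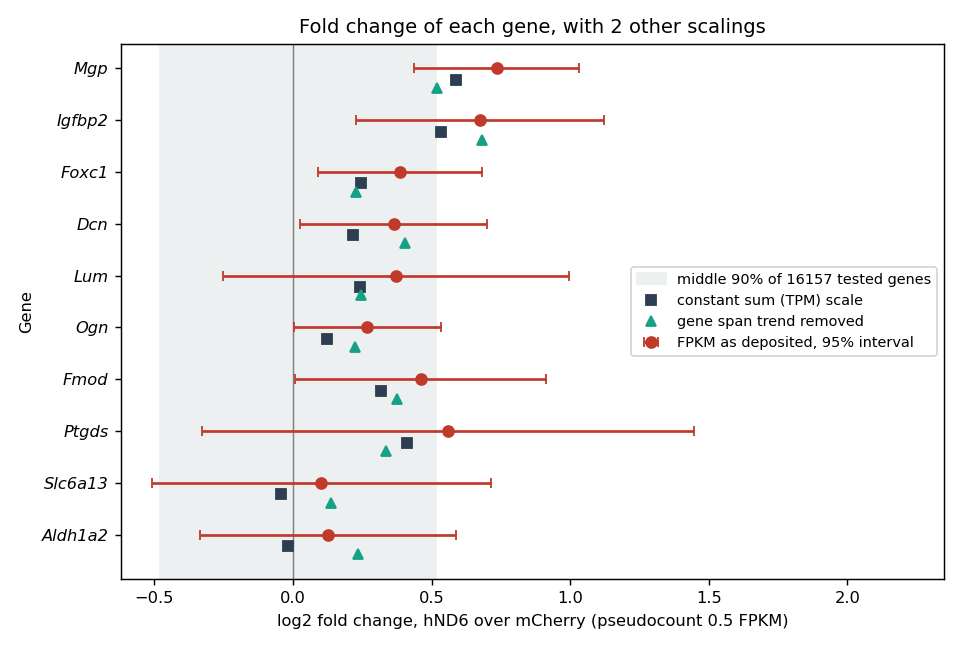
Log2 fold change of each gene, hND6 over mCherry, with its 95% interval from limma (red), and the same value on the constant sum (TPM) scale (squares) and with the gene span trend removed (triangles), over a band for the middle 90% of tested genes. Mgp at 0.73 and Igfbp2 at 0.68 stand farthest to the right, and Slc6a13 and Aldh1a2 cross 0 on the constant sum scale.

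Mgp encodes matrix Gla protein, a small secreted protein that depends on vitamin K, binds bone morphogenetic proteins (BMPs) and keeps soft tissue from calcifying. It lies on chromosome 6 of the mouse build (136872435 to 136875823, minus strand). Its level was 163, 142 and 189 FPKM in hND6 1 to 3 and 99.5, 104 and 91.4 FPKM in mCherry 1 to 3. The groups were 38.2 FPKM apart at their nearest values, and hND6 3 was the highest library. Mgp had the smallest p of the 10, with a log2 fold change of 0.73 ± 0.12 (SE, n = 3 per group; 95% interval 0.44 to 1.03; limma adjusted p = 0.148). It ranked 87th of 16157 genes by p, and 1.86% of tested genes had a larger log2 fold change. Over 23 other settings its log2 fold change ran from 0.52 to 0.84 and its adjusted p from 0.0731 to 0.581.

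Igfbp2 encodes a binding protein that holds insulin-like growth factors in the fluid around cells, and in the brain it is made mainly by leptomeninges, choroid plexus and astrocytes. It lies on chromosome 1 (72824503 to 72852474, plus strand). It stood at 51.4, 55.9 and 35.9 FPKM in hND6 1 to 3 and at 26.5, 27.6 and 33.8 FPKM in mCherry 1 to 3. The nearest values, hND6 3 and mCherry 3, were 2.09 FPKM apart, while hND6 1 and 2 stood well above all mCherry libraries. The log2 fold change was 0.68 ± 0.19 (SE, n = 3 per group; 95% interval 0.23 to 1.12; limma adjusted p = 0.21). Of 7 choroid plexus markers 3 were tested, and the summed level of the 7 was 6.59 to 12.0 FPKM in hND6 and 3.85 to 12.8 FPKM in mCherry. Of 6 tested astrocyte markers 5 lay higher in hND6. On the FPKM scale 3 had separate groups, higher in hND6, beside 12.6% of all tested genes. S100b, a calcium-binding protein gene, stood at 370, 421 and 417 FPKM in hND6 and 307, 259 and 212 FPKM in mCherry (limma adjusted p = 0.194). Summed astrocyte markers stood at 2023, 2355 and 2452 FPKM in hND6 1 to 3 and at 1981, 1873 and 1452 FPKM in mCherry 1 to 3. The part of astrocytes in the Igfbp2 difference was not tested.

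Foxc1, the forkhead transcription factor gene, is a single-exon gene on chromosome 13 (31806633 to 31812476, plus strand). It stood at 14.0, 18.0 and 14.8 FPKM in hND6 1 to 3 and 12.9, 10.8 and 11.6 FPKM in mCherry 1 to 3. The groups were separate by 1.07 FPKM, between hND6 1 and mCherry 1. Its log2 fold change was 0.39 ± 0.12 (SE, n = 3 per group; 95% interval 0.09 to 0.68; limma adjusted p = 0.251).

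Promoters are shown for Igfbp2, Foxc1 and Ogn. The other separated genes, Mgp and Dcn, had no promoter sequence in the set used. Windows of 300 bases, 250 before and 50 after the RefSeq start site, were matched by symbol for 7 of the 10 genes, and where a gene had several the window nearest to its start in the authors' table was taken. Those of Igfbp2 (chr1:72824230-72824529, plus strand), Foxc1 (chr13:31806396-31806695, plus strand) and Ogn (chr13:49607765-49608064, plus strand) are printed from RefSeq on GRCm38.p6. Capitals mark matches to the motifs searched on both strands: the forkhead motifs GTAAACA and GTAAATA, the TATA box TATAAA, the GC box GGGCGG and the nuclear receptor half-site AGGTCA.
Igfbp2: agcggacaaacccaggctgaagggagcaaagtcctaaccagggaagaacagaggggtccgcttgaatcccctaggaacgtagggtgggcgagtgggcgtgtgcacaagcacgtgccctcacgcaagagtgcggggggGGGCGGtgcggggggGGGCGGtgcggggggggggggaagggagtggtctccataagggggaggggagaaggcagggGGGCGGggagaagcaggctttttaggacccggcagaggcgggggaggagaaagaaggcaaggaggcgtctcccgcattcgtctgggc
Foxc1: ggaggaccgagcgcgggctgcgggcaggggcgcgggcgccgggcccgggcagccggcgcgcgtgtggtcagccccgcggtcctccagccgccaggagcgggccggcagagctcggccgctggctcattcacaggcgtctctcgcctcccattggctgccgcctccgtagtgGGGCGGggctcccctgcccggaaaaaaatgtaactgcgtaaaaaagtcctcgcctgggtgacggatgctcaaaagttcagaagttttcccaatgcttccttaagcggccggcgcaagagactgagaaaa
Ogn: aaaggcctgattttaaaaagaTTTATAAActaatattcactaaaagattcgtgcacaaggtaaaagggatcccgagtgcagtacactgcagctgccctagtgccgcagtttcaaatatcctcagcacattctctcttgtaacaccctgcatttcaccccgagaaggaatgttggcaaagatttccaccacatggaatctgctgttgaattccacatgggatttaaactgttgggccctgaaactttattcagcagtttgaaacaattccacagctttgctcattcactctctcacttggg

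The 3 windows differed in composition. The Igfbp2 window held 3 GC boxes and 18 CG pairs, and the Foxc1 window 1 GC box and 32 CG pairs, while the median of 32851 windows was 7 CG pairs. The Ogn window held 4 CG pairs and no GC box, and its TATA box letters, read on both strands of the same place, began at position -227 from the start site on the plus strand. A GC box occurred in 35.7% of all windows, TATAAA in 13.6%, AGGTCA in 16.3%, GTAAACA in 3.65% and GTAAATA in 3.04%. None of the 7 matched windows held a forkhead motif or AGGTCA in these letters. The other matched windows were those of Aldh1a2, with 50 CG pairs, Slc6a13 with 11 and 2 GC boxes, Fmod with 3 and Ptgds with 2. A match of letters is a description and says nothing about binding.

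Dcn, Lum, Ogn and Fmod encode small leucine-rich proteoglycans, decorin, lumican, osteoglycin and fibromodulin. Dcn was the most abundant of them. It lies on chromosome 10 (97479609 to 97518143, plus strand) and stood at 80.9, 98.0 and 88.7 FPKM in hND6 1 to 3 and 57.8, 79.6 and 71.6 FPKM in mCherry 1 to 3. The lowest hND6 and the highest mCherry value were 1.34 FPKM apart, and mCherry 1 stood lowest (log2 fold change 0.36 ± 0.14, SE, n = 3 per group; limma adjusted p = 0.304). Lum begins 85519 bases further along the same strand of chromosome 10 (97565128 to 97572703). It stood at 4.61, 7.02 and 5.35 FPKM in hND6 and 2.89, 5.77 and 4.38 FPKM in mCherry. The Lum groups overlapped, and its 95% interval ran from -0.25 to 0.99 on the log2 scale (limma adjusted p = 0.538).

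The ratio of Lum to Dcn overlapped between the groups. Lum was 0.0569, 0.0716 and 0.0603 of the Dcn level in hND6 1 to 3, and 0.05, 0.0724 and 0.0613 of it in mCherry 1 to 3. The hND6 range lay within the mCherry range. Kera and Epyc, the other proteoglycan genes of this chromosome 10 cluster, known from cornea and cartilage, were listed at 0 in all 6 libraries (Kera) or at no more than 0.0597 FPKM in any library (Epyc).

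Ogn lies on chromosome 13 (49608046 to 49624501, plus strand). It stood at 34.2, 40.6 and 31.5 FPKM in hND6 1 to 3 and 29.4, 27.5 and 30.7 FPKM in mCherry 1 to 3. The groups were separate by 0.835 FPKM, the narrowest gap of the 5 separated genes (log2 fold change 0.27 ± 0.11, SE, n = 3 per group; limma adjusted p = 0.327). Ogn lies inside Cenpp, a centromere protein gene on the other strand, and the sources used here do not say whether the counting used strand. Cenpp stood lower in hND6, at 7.20, 5.97 and 6.83 FPKM, against 7.34, 9.94 and 10.1 FPKM in mCherry. Its proteoglycan neighbour Omd stood at 3.25, 3.87 and 3.54 FPKM in hND6 and 2.33, 2.17 and 3.98 FPKM in mCherry, and Ecm2 at 12.6, 13.6 and 11.7 FPKM in hND6 and 9.71, 13.4 and 10.8 FPKM in mCherry. Both overlapped between groups, and Aspn, the remaining one of the row, stood at no more than 0.509 FPKM.

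Fmod lies on chromosome 1 (134037254 to 134048277, plus strand) and stood at 54.6, 64.0 and 38.0 FPKM in hND6 1 to 3, against 36.1, 35.8 and 38.9 FPKM in mCherry 1 to 3. The mCherry libraries lay close together, hND6 1 and 2 stood above them, and hND6 3 lay within their range. The log2 fold change was 0.46 ± 0.19 (SE, n = 3 per group; 95% interval 0.01 to 0.91; limma adjusted p = 0.323). Its neighbour Prelp, another collagen-binding proteoglycan gene, stood at 62.3, 75.6 and 82.6 FPKM in hND6 and 71.9, 63.3 and 51.6 FPKM in mCherry, with hND6 3 highest. The proteoglycan Bgn, biglycan, chosen from the list by its small p, stood at 45.4, 44.8 and 45.0 FPKM in hND6 and 33.4, 35.4 and 29.1 FPKM in mCherry (0.46 on the log2 scale, limma adjusted p = 0.155).

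Ptgds encodes lipocalin-type prostaglandin D synthase, one of the most abundant products of the leptomeninges and also made by oligodendrocytes. It lies on chromosome 2 (25466709 to 25469842, minus strand) and had the 6th highest mean level of all tested genes. Its level was 4513, 5277 and 3102 FPKM in hND6 1 to 3 and 2363, 2683 and 3652 FPKM in mCherry 1 to 3. Libraries hND6 1 and 2 were highest, but mCherry 3 stood above hND6 3. The log2 fold change of 0.56 ± 0.37 (SE, n = 3 per group) had a 95% interval from -0.33 to 1.45 (limma adjusted p = 0.516). After quantile normalisation the log2 fold change was 0.09 (limma adjusted p = 0.881). Ptgds made up 86.2% to 90.1% of the summed level of the 10 genes in hND6 and 86.7% to 89.99% in mCherry. Of 7 oligodendrocyte markers, all tested, 6 lay higher in hND6 (median 0.33 on the log2 scale). On the FPKM scale 2 had separate groups, higher in hND6, beside 12.6% of all tested genes. Their summed level was 6553, 7598 and 7566 FPKM in hND6 1 to 3 and 6091, 6859 and 4571 FPKM in mCherry 1 to 3. The part of oligodendrocytes in the Ptgds level was not tested.

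Slc6a13, a transporter gene for GABA and taurine, lies on chromosome 6 (121300227 to 121337733, plus strand). It stood at 52.0, 58.2 and 30.9 FPKM in hND6 1 to 3 and 34.9, 47.7 and 45.3 FPKM in mCherry 1 to 3. It was lowest of all in hND6 3 and highest in hND6 2, so the groups overlapped fully (log2 fold change 0.10, 95% interval -0.51 to 0.71, limma adjusted p = 0.875). Aldh1a2, which makes retinoic acid from retinaldehyde, lies on chromosome 9 (71215789 to 71296243, plus strand). It stood at 72.3, 98.6 and 62.6 FPKM in hND6 1 to 3 and 59.2, 73.4 and 78.7 FPKM in mCherry 1 to 3. Again hND6 2 was highest and the groups overlapped (log2 fold change 0.13, 95% interval -0.34 to 0.59, limma adjusted p = 0.789). Both changed sign with the scale or the libraries: on the TPM scale they were -0.042 and -0.018, and without hND6 2 they were -0.075 and -0.057.

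**Figure D3:**
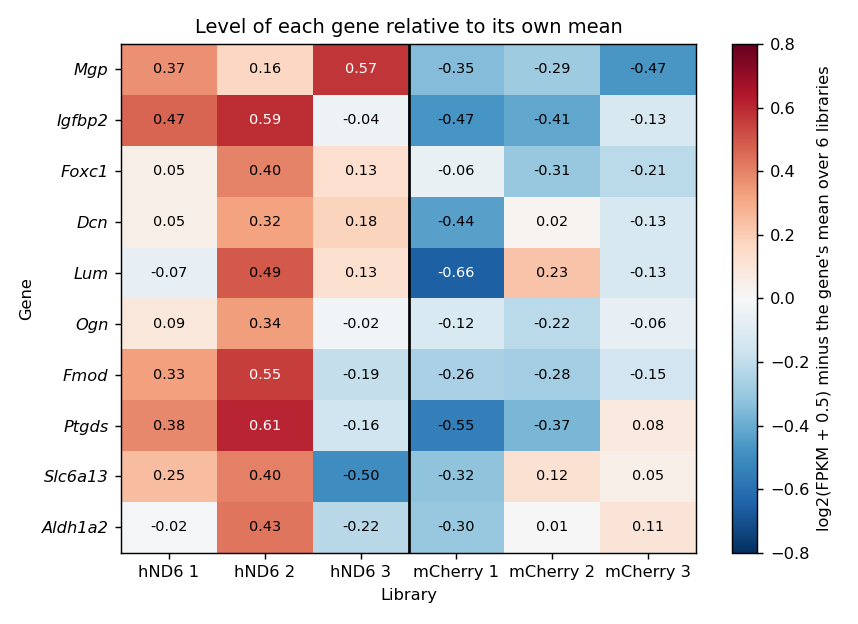
Log2(FPKM + 0.5) of each gene in each library minus the gene's mean over the 6 libraries, hND6 libraries left of the line and mCherry libraries right of it, red for above and blue for below the mean. The hND6 2 column is above the mean for all 10 genes, while hND6 3 is highest for Mgp at 0.57 and lowest for Slc6a13 at -0.50.

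The genes did not vary as a single block across the libraries. Library hND6 2 held the highest level of 9 of the 10 genes, while 14.2% of all tested genes were highest there. The exception was Mgp, highest in hND6 3. Library hND6 3 in turn held values of Slc6a13, Aldh1a2, Ptgds, Fmod, Igfbp2 and Ogn that lay below their mean over all libraries. Mgp was 6.10 times the level of Slc6a13 in hND6 3, against 3.14 and 2.44 times in hND6 1 and 2 and 2.02 to 2.85 times in mCherry. Library mCherry 1 held the lowest level of 5 genes, against 17.0% of all tested genes. Averaged over the 10 genes, the centred log2 level was 0.19, 0.43 and -0.01 in hND6 1 to 3 and -0.35, -0.15 and -0.11 in mCherry 1 to 3.

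By level the genes spanned a wide range. In hND6, Ptgds averaged 4297 ± 1104 FPKM, Mgp 165 ± 23.3, Dcn 89.2 ± 8.56 and Aldh1a2 77.8 ± 18.6, followed by Fmod at 52.2 ± 13.2, Igfbp2 at 47.7 ± 10.5 and Slc6a13 at 47.0 ± 14.3 (SD, n = 3). Ogn followed at 35.4 ± 4.67, Foxc1 at 15.6 ± 2.09 and Lum at 5.66 ± 1.24 FPKM. In mCherry, Ptgds averaged 2899 ± 671 FPKM, Mgp 98.2 ± 6.26, Aldh1a2 70.4 ± 10.1 and Dcn 69.7 ± 11.0, followed by Slc6a13 at 42.6 ± 6.78, Fmod at 36.9 ± 1.74, Igfbp2 at 29.3 ± 3.91 and Ogn at 29.2 ± 1.58. Foxc1 at 11.8 ± 1.06 and Lum at 4.35 ± 1.44 FPKM were again lowest. The mean ± SD ranges of Dcn and Aldh1a2 overlapped in either group. So did those of Fmod, Igfbp2 and Slc6a13 in hND6, and of Igfbp2 and Ogn in mCherry. These ranges leave aside that the genes share libraries, and Fmod stood above Igfbp2 and Slc6a13 in each hND6 library.

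Related genes were read from 10 lists that were chosen with earlier results of these data known, and no gene of them passed the adjusted threshold in limma, while without mCherry 3 1 BMP and TGF-beta gene did. Counts at an unadjusted p under 0.05 from all libraries as deposited stand beside 9.11% of all genes higher and 6.05% lower. In other settings the numbers of all 16157 tested genes higher and lower at that p differed. They were 544 and 2185 on the TPM scale, 879 and 401 without hND6 2, and 875 and 479 without hND6 3. They were 1298 and 791 without hND6 1, and 1418 and 853 without mCherry 1. The last were 1283 and 665 without mCherry 2, and 1821 and 1741 without mCherry 3. The median of all genes being -0.14 on the TPM scale, list medians there lay below 0 for matrix (-0.06), IGF (-0.09), retinoic acid (-0.04), prostaglandin (-0.02), vitamin K (-0.02) and transporter genes (-0.17), and without hND6 2 those of matrix (-0.01) and IGF genes (-0.02) did. Of 34 tested genes of the meningeal layers 26 lay higher (median log2 fold change 0.18), 8 of them at an unadjusted p under 0.05, and 0 lay lower at that p. On the TPM scale 19 of the 34 lay higher (median 0.05), 1 higher and 1 lower at that p, the 8 became 4 without mCherry 3 or without hND6 1, and the median was 0.08 without hND6 2 and 0.30 without hND6 3. Among the genes of smallest p were Crabp2, a retinoic acid binding protein gene (24.2, 25.8 and 23.9 FPKM in hND6, 16.6, 18.0 and 21.4 FPKM in mCherry; limma adjusted p = 0.207) and S100a6. S100a6, a calcium-binding protein gene of pial cells, stood at 302, 364 and 400 FPKM in hND6 and 276, 224 and 249 FPKM in mCherry. In both the groups were separate.

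Of 29 tested matrix genes outside the collagens 18 lay higher and 11 lower (median 0.06), with 6 higher and 0 lower at an unadjusted p under 0.05. The named ones were Pcolce, an enhancer of procollagen processing (45.3, 50.7 and 44.5 FPKM in hND6, 30.8, 37.1 and 35.7 FPKM in mCherry), the collagen chaperone gene Serpinh1 and Efemp1. Of 21 fibroblast identity genes 16 lay higher (median 0.17), 5 at that p, among them Serpinf1 (11.0, 14.4 and 12.2 FPKM in hND6, 6.19, 9.91 and 9.04 FPKM in mCherry), while the complement protease gene C1s1 lay lower. Matrix genes numbered 1 higher and 2 lower at that p on the TPM scale, 2 and 2 without mCherry 1, and 2 and 1 without hND6 2, and their median ran from -0.01 without hND6 2 to 0.23 without hND6 1. Fibroblast identity genes numbered 0 higher and 1 lower at that p without hND6 2, 1 and 0 without hND6 3, 2 and 1 without mCherry 3, 3 higher with each other library left out in turn, and 1 and 1 on the TPM scale, where 11 of 21 lay higher (median 0.03). Of 8 tested proteoglycan and partner genes 7 lay higher (median 0.20, 0.06 on the TPM scale or without mCherry 3), with 1 higher, Bgn, and 1 lower at that p. The lower one, Bmp1, the procollagen protease gene, stood at 21.8, 23.5 and 23.6 FPKM in hND6, against 26.6, 31.1 and 25.3 FPKM in mCherry.

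BMP and TGF-beta genes belong beside Mgp, whose protein binds BMPs. Of 25 tested 19 lay higher (median 0.17), with 4 higher and 1 lower at an unadjusted p under 0.05. The median was 0.07 without hND6 2, 0.08 without mCherry 3 (15 of 25 higher) and 0.03 on the TPM scale (14 of 25 higher), and the 4 became 2 without hND6 1 or without hND6 3. The BMP response genes Id3 and Id1 had the smallest p of all 10 lists. Id3 stood at 77.4, 101 and 95.01 FPKM in hND6 and 50.4, 55.2 and 50.1 FPKM in mCherry, 0.80 higher on the log2 scale (limma adjusted p = 0.143). Id1 stood at 34.0, 38.1 and 42.7 FPKM in hND6 and 23.8, 19.8 and 17.1 FPKM in mCherry, 0.91 higher on the log2 scale (limma adjusted p = 0.143). In both genes every hND6 library lay above every mCherry library. The receptor gene Acvr1 lay lower, at 19.6, 19.1 and 19.9 FPKM in hND6 and 23.8, 25.7 and 21.5 FPKM in mCherry.

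Partners of the other genes were counted in the same way. Of 14 IGF genes 7 lay higher and 7 lower (median 0.05), with 1 higher and 2 lower at an unadjusted p under 0.05. Igfbp4, another IGF binding protein gene, stood at 12.0, 9.96 and 8.71 FPKM in hND6 and 7.0, 6.48 and 5.81 FPKM in mCherry, and the receptor genes Igf1r and Insr lay lower, Igf1r at 25.9, 28.9 and 26.5 FPKM in hND6 and 32.1, 38.9 and 30.5 FPKM in mCherry. Of 14 retinoic acid genes 10 lay higher (median 0.10), 2 of them and 0 lower at that p. One of the 2 was Crabp2, already counted among the meningeal layer genes. The other was Cyp26b1, which breaks retinoic acid down, at 8.56, 10.4 and 3.91 FPKM in hND6 and 2.69, 4.19 and 4.02 FPKM in mCherry. On the TPM scale 6 of the 14 lay higher, with 1 higher and 2 lower at that p. Without mCherry 3 there were also 1 higher and 2 lower. Of 14 prostaglandin genes 9 lay higher (median 0.11) and 0 reached an unadjusted p under 0.05 in limma. The same was so of 13 GABA and amino acid transporter genes, where 5 lay higher (median -0.03), and 1 of 10 vitamin K and calcification genes reached it, Alpl, a phosphatase gene. With single libraries left out, the list medians ran from -0.02 (without mCherry 3 or hND6 2) to 0.09 (without mCherry 2) for IGF genes, from 0.04 (without mCherry 3) to 0.14 (without mCherry 1) for retinoic acid genes, from 0.05 (without hND6 2) to 0.23 (without mCherry 1) for prostaglandin genes, from -0.09 (without hND6 1) to 0.04 (without hND6 3) for transporters and from 0.02 (without mCherry 3) to 0.15 (without hND6 1) for vitamin K genes, of which 4 reached that p without mCherry 1.

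**Figure D4:**
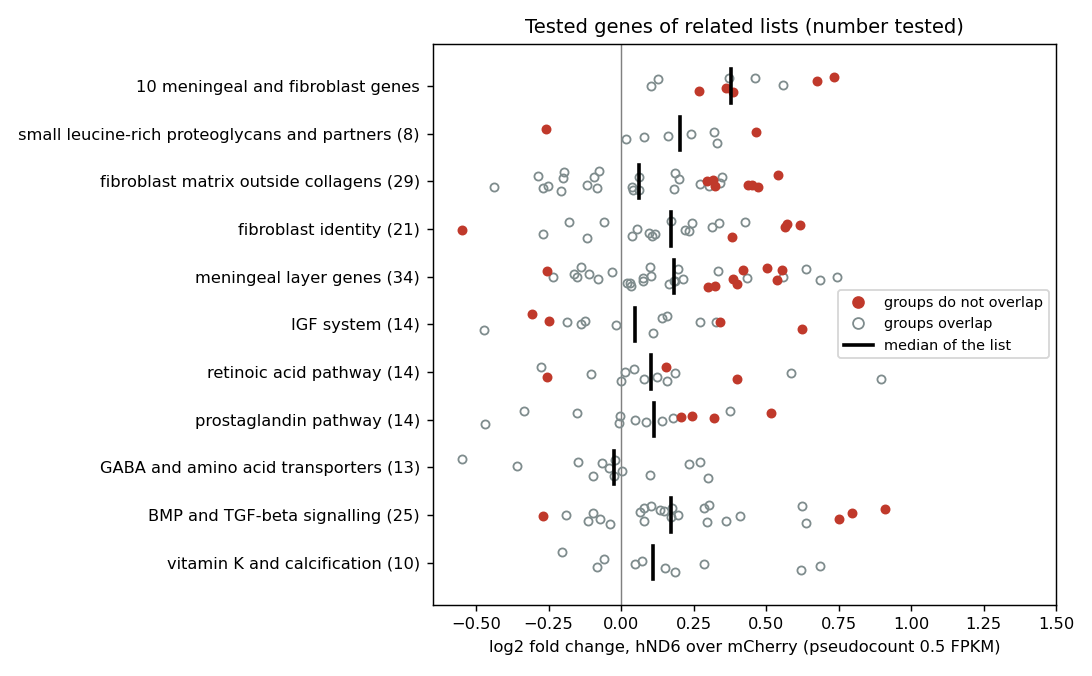
Log2 fold change, hND6 over mCherry, of each tested gene of the 10 genes and of the 10 related lists, filled where the hND6 and mCherry libraries do not overlap, with a bar at each list's median. The median of the 10 genes is 0.38 and those of the related lists lie between -0.03 and 0.20, while lists of other cell types are not plotted.

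The genes whose profile over the 6 libraries was most like the mean of the 10 were found among 13188 protein-coding genes by the root mean square difference of centred log2 levels. They were Jrkl (0.0445), Akr1c14, Osr1, Egf and Sema3b (0.0730). Osr1, a transcription factor gene of fibroblast precursors, stood at 23.4, 27.3 and 20.7 FPKM in hND6 and 15.4, 19.5 and 17.8 FPKM in mCherry. Sema3b, a secreted guidance protein gene, stood at 37.5, 45.0 and 36.6 FPKM in hND6 and 28.1, 31.7 and 29.7 FPKM in mCherry. Both were highest in hND6 2 and lowest in mCherry 1, and so were Jrkl, Akr1c14 and Egf, which stood at lower levels in every library. The mean profile of the 10 genes had the same highest and lowest library. Genes picked for likeness to that profile were bound to resemble it, so the shared pattern is no separate result. Of the 10 genes themselves Ogn was nearest to the mean profile (0.114) and Mgp farthest (0.315).

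The summed markers of neighbouring tissue and vessels overlapped between the groups. Cartilage markers summed to 7.64 to 9.52 FPKM in hND6 and 6.83 to 9.02 FPKM in mCherry, and those of sclera and cornea to 1.03 to 1.96 FPKM in hND6 and 0.741 to 1.62 FPKM in mCherry. Of these, Col2a1, a cartilage collagen gene, and Aldh3a1, a corneal aldehyde dehydrogenase gene, had separate groups, both higher in hND6. Skeletal muscle markers summed to 9.42 to 13.7 FPKM in hND6 and 6.68 to 12.2 FPKM in mCherry, and adipocyte markers to no more than 0.11 FPKM. Pericyte and smooth muscle markers summed to 45.5 to 70.9 FPKM in hND6 and 41.7 to 47.8 FPKM in mCherry, with 0 of 8 separate between groups. Endothelial markers summed to 53.9 to 64.8 FPKM in hND6 and 58.5 to 59.7 FPKM in mCherry, also with 0 of 7 separate. Red blood cell markers summed to 1363 to 2602 FPKM in hND6 and 179 to 467 FPKM in mCherry, and 5 of 5 plasma cell markers passed the adjusted threshold, with sums of 120 to 286 FPKM in hND6 and 0.369 to 1.88 FPKM in mCherry. Red blood cell and plasma cell transcripts were thus higher in the group in which the sheath genes stood higher, and their part in the result was not tested. Schwann cell markers summed to 462 to 565 FPKM in hND6 and 335 to 497 FPKM in mCherry, border macrophage markers to 15.6 to 23.3 FPKM in hND6 and 12.8 to 22.6 FPKM in mCherry, and both overlapped. All 4 tested Schwann cell markers lay higher in hND6 (median 0.37 on the log2 scale), with 0 separate.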

How the data were processed

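Optic nerve RNA was sequenced in 3 hND6 and 3 mCherry libraries. Per the labels, the deposited values are FPKM, extraction used a Qiagen RNeasy kit, and a TruSeq stranded kit for total RNA gave the libraries. Per the submitters' processing notes, the tools were HTSeq, STAR, Trim Galore and CASAVA 1.4, on mm10 and GRCm38, with no role given. The sources used here do not give the counting mode. The authors' gene table gave symbol, position, span and exon length. Multiplied by exon length, the values of a library were whole multiples of 1 step for at least 99.99% of values above 0 (within 0.1 read), which gave whole reads.

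A gene was tested if its mean over 6 libraries reached 0.5 FPKM, on log2(FPKM + 0.5) with limma 3.58.1 in R 4.3.3 (intensity trend, Benjamini-Hochberg adjustment over all tested genes, threshold 0.05). Fold changes on this scale understate those of low genes. The method was tested on simulated data. Other pseudocounts, filters, scalings, weights, a replicate block, sex, voom on recovered reads, removal of each library's lowess trend with gene span and left-out libraries were tried. The 10 genes, lists and tests were chosen with earlier results of these data known. Genes named from a list are the 3 of smallest p and, for other cell types, the 2 most abundant, a few of which are not reported here.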

Additional observations from a re-analysis of the deposited data

How the results depend on the processing

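No gene of the 10 passed the adjusted threshold under any of the 23 other settings. The count of all genes past it, 7 as reported, was 1 with no filter on low values, 0 with voom on recovered reads, 4 with sex as a covariate, 1 without mCherry 3 and hND6 1, 0 without mCherry 3 and hND6 2 (chosen after the data were seen), and 0 to 131 with single libraries left out. The replicate block gave 0. Deviations of same-numbered libraries correlated at -0.416, 0.363 and -0.197, and those of other pairs at -0.45 to 0.555. With 3 libraries per group these values cannot tell whether equal numbers mark a pair. The count of separate groups among the 10, 5 as reported beside 12.6% of all tested genes, was 1 on the TPM scale, beside 5.37%. With Gm23935 left out of that scale's sum the count was 2, beside 6.69%. With the gene span trend removed it was 3 (Mgp, Igfbp2 and Dcn), beside 8.84%. With single libraries left out the count was 5 to 8, beside 15.1% to 19.9% of all tested genes, and without mCherry 3 it was 7, beside 19.9%. The median of the 10 stayed between 0.24 and 0.45. Slc6a13 changed sign on the TPM scale (-0.042), with Gm23935 left out of the sum (-0.017), with sex as a covariate (-0.078) and without mCherry 3 and hND6 2 (-0.025), and ran from -0.075 to 0.38 with single libraries left out. Aldh1a2 changed sign on the TPM scale (-0.018) and ran from -0.057 to 0.27 with single libraries left out. The cause was not tested. The other 8 genes kept their direction in all 23 settings, though Ptgds fell to 0.09 after quantile normalisation.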
